A study of Mus musculus with 6 samples.

Results

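The genes described here coat lipid droplets, take fatty acids into cells and control fat storage: Plin2, Plin4, Plin5, Cidec, Cidea, G0s2, Mogat1, Cd36, Fabp4 and Pparg. They were chosen by symbol, and all 10 were found among the 21983 gene symbols of the count table. Of these 10, 8 had enough counts to be tested, among 13153 genes tested in all. Counts came from whole liver of 6 C57BL/6 mice given thioacetamide (TAA), a liver toxin that causes scarring, in drinking water at 400 mg/L for 16 weeks. The knockout mice (49, 82 and 88, labelled Lrat-Cre; Prmt1f/f) carried floxed Prmt1 together with Cre driven from Lrat, a gene of hepatic stellate cells. The control mice (42, 83 and 90, labelled Prmt1f/f) carried floxed Prmt1 without Cre. No mouse without TAA, and no mouse with Cre but without the floxed allele, was part of the comparison, so neither TAA nor Cre itself was measured. The age label reads 10 weeks, without the time point it refers to. They describe separate mice and give no sex; Y-linked genes had counts in all 6.

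Triglyceride is stored in cells as droplets with a coat of perilipins and CIDE proteins. The perilipins hold lipases off the droplet core, and CIDEC lets small droplets merge into large ones. In liver, hepatocytes hold most droplets in steatosis, while stellate cells store retinyl esters in droplets of their own. PPAR-gamma, the product of Pparg, is a fatty-acid-sensing nuclear receptor that binds DNA with RXR at paired hexamers and switches on many of the genes listed here, among them Cidec, Cd36, Fabp4, Mogat1 and Plin2.

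Prmt1, the targeted gene, encodes the main asymmetric arginine methyltransferase. It had 38.9, 44.4 and 49.8 CPM (counts per 1000000 counts of a library, whose total was scaled by the TMM method) in control mice 42, 83 and 90, and 35.8, 24.7 and 25.8 CPM in knockout mice 49, 82 and 88. Mouse 49 thus had the highest Prmt1 level of the knockout mice. The log2 fold change of Prmt1, knockout over control, was -0.62 (SE 0.20, adjusted p = 0.347 in the quasi-likelihood test of edgeR). These are whole-liver counts, so the Prmt1 level within stellate cells was not measured. Mouse 49 also had the lowest summed level of 10 stellate cell markers of all mice (345 CPM). Total counts ranged from 13303884 to 16462278 per mouse.

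The promoter sequences of 3 genes (Plin2, Cidec and Cd36) are shown because these genes are known targets of PPAR-gamma, whose gene Pparg is among the 10. The windows are the bases before the RefSeq start (GRCm38.p6, minus strand for all 3), read from RefSeq and printed 5′ to 3′. Capitals mark the stretch closest to a direct repeat of AGGTCA with 1 base between the copies, the textbook PPAR site, searched on both strands; in all 3 the stretch matches on the strand opposite to the one printed.
Plin2: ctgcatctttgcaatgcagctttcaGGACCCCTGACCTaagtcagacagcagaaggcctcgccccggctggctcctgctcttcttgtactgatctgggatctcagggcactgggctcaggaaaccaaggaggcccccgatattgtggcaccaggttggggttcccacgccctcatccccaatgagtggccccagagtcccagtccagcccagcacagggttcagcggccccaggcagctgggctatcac
Cidec: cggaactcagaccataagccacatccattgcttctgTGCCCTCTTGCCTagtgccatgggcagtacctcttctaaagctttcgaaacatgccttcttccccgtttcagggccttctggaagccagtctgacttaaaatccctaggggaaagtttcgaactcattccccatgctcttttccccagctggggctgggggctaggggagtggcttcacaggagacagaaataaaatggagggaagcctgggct
Cd36: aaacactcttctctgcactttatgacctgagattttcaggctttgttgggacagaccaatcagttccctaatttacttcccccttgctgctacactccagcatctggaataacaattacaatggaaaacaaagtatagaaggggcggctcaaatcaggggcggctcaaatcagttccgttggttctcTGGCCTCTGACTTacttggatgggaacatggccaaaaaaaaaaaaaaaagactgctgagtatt
The Plin2 window (chr4:86670061-86670309) held a stretch with 2 mismatches to the motif, between positions -225 and -213 from the start. The Cd36 window (chr5:17835897-17836146) also held one with 2 mismatches, between -63 and -51. The Cidec window (chr6:113435761-113436010) had 3 mismatches at best, between -214 and -202, and the window of a second RefSeq start of Cidec had 4. Among 32851 RefSeq windows of the same 250 bases, 3.24% held a match with at most 2 mismatches, 21.3% with at most 3 and 74.5% with at most 4. RefSeq entries were matched for 8 of the 10 genes (12 windows), not for Fabp4 and Cidea. Mogat1 had 2 mismatches at best, Plin5 3, and Plin4, G0s2 and all 3 Pparg windows 4. These matches are descriptions of letters and not of binding.

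By the quasi-likelihood test of edgeR, 0 of the 8 tested genes passed 0.05 after Benjamini-Hochberg adjustment, nor did any of the 13153 genes tested (background share 0%). Unadjusted, 0.05 was passed by 1 of the 8 tested genes, Pparg, against a background share of 11%. Pparg was also the only 1 of the 8 whose groups did not overlap, against a background share of 16.9% in either direction and 7.95% with lower values in knockout mice. DESeq2 (background share 1.81%) and limma-voom (0%) called 0 of the 8. With a weight per library limma-voom called Cidec, with a background share of 4.26%. The median log2 fold change (knockout over control) of the 8 was -0.35, beside -0.02 over all genes tested, with 5 negative values (52.7% of all genes tested were negative). In whole liver, fewer cells of a type and less RNA per cell cannot be told apart.

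**Figure D1:**
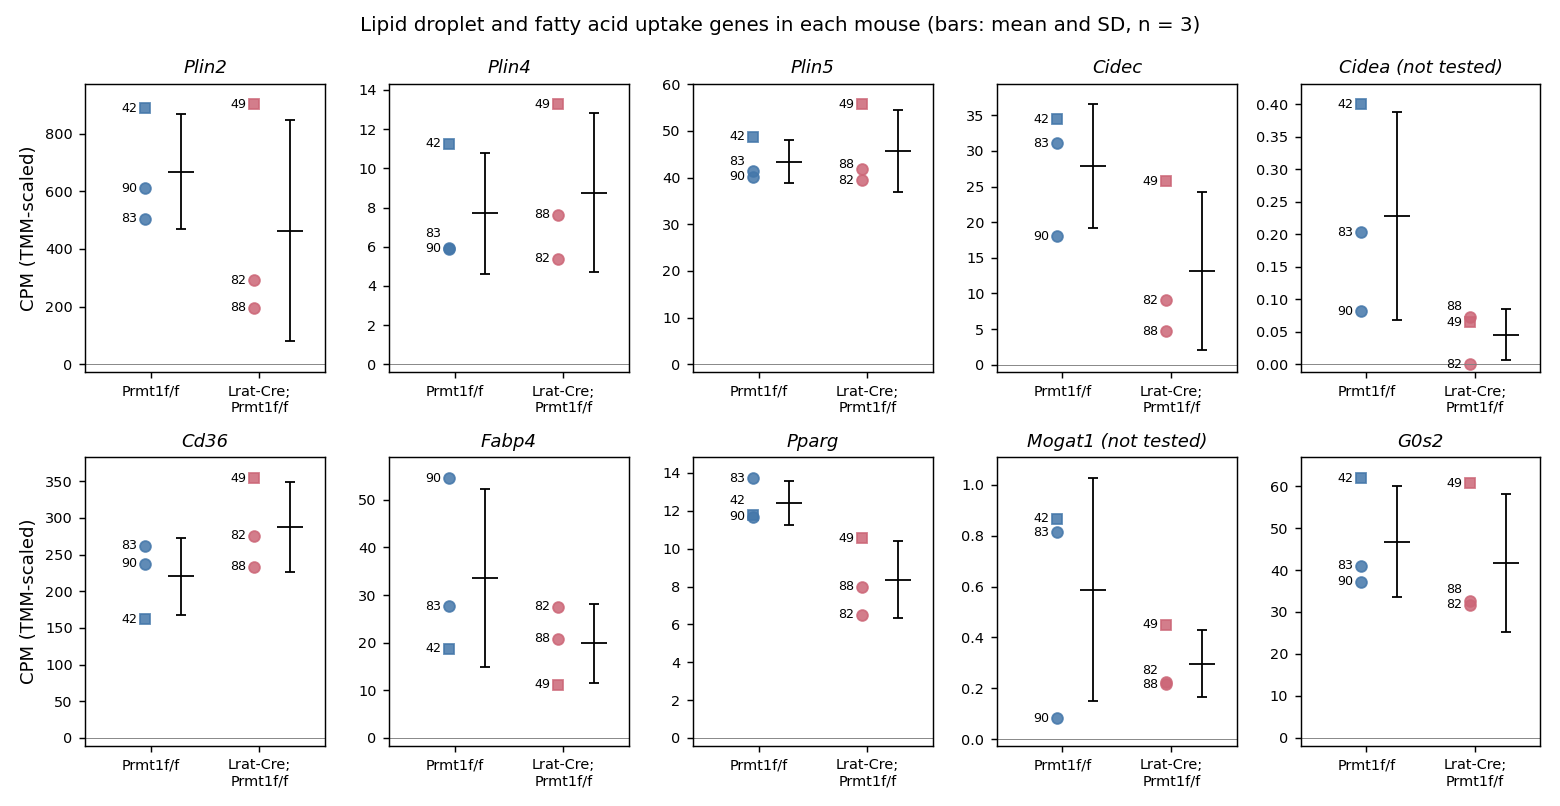
CPM of each of the 10 genes (vertical axis from 0, own scale per gene) in the 3 control mice (blue) and 3 knockout mice (red), with mouse numbers, mean and SD; squares are mice 42 and 49. In Plin2, Plin4, Plin5 and G0s2 both squares lie above the other 4 mice, and only Pparg among the 8 tested genes has groups that do not overlap.

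Pparg (chromosome 6, 115360951 to 115490399, plus strand; all gene positions are from GENCODE M21 on GRCm38) had 11.8, 13.7 and 11.7 CPM in control mice 42, 83 and 90, and 10.6, 6.52 and 7.999 CPM in knockout mice 49, 82 and 88. Every knockout mouse lay below every control mouse, with mouse 49 closest to the controls. The means were 12.4 ± 1.14 CPM (SD, n = 3) and 8.36 ± 2.04 CPM (SD, n = 3), so that knockout livers had 67.4% of the control level. The log2 fold change of -0.57 (SE 0.24, 95% interval -1.12 to -0.02) had an adjusted p of 0.444 in edgeR. An exact permutation test (two-sided) gave 0.1, its smallest possible p with 3 mice against 3. The table counts reads per gene, so its isoforms from separate promoters are summed.

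Cidec (chromosome 6, 113424634 to 113435760, minus strand), the droplet fusion gene, had the most negative fitted value of the 8. Its levels were 34.5, 31.1 and 17.99 CPM in control mice 42, 83 and 90, and 25.8, 9.07 and 4.68 CPM in knockout mice 49, 82 and 88. Mice 82 and 88 were below all other mice, while mouse 49 lay above control mouse 90, so the groups overlapped. The means were 27.8 ± 8.69 and 13.2 ± 11.1 CPM (SD, n = 3 each), and the log2 fold change came to -1.08 (SE 0.54, 95% interval -2.30 to 0.15; adjusted p = 0.483 in edgeR). Without mouse 49 the log2 fold change of Cidec was -2.02 (SE 0.39, adjusted p = 0.102 in edgeR), and without mouse 88 it was -0.70. Limma-voom with library weights gave mice 82 and 88 the highest weights (2.98 and 2.09). The lowest weights went to control mouse 90 (0.315) and knockout mouse 49 (0.506), the mice in which the groups overlapped. With these weights the log2 fold change of Cidec was -1.93, with an adjusted p of 0.0336 in limma-voom. Cidea, its relative known from brown fat and steatotic liver (chromosome 18, 67343604 to 67367785, plus strand), had only 6, 4 and 1 counts in control mice 42, 83 and 90 and 1, 0 and 1 in knockout mice 49, 82 and 88. That is too few for the test, and the ratio of control to knockout, scaled for depth, was 5.01 with a 95% interval (exact binomial, counting error only) from 1.09 to 46.5. That interval leaves out the spread between mice. In the edgeR fit without a low-count filter its log2 fold change was -2.15 (SE 1.19, 95% interval -4.76 to 0.46, adjusted p = 0.556).

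Plin2 (chromosome 4, 86648386 to 86670060, minus strand), the perilipin of most non-adipose cells, was the most abundant of the 10. It had 889, 505 and 611 CPM in control mice 42, 83 and 90, and 901, 292 and 196 CPM in knockout mice 49, 82 and 88. The highest level of all was thus in a knockout mouse, and the lowest levels were in the other two knockout mice. Mice 42 and 49 differed by a ratio of 0.986, while mouse 49 had 3.69 times the mean of mice 82 and 88. The means were 668 ± 198 and 463 ± 382 CPM (SD, n = 3 each), with a log2 fold change of -0.53 (SE 0.52, 95% interval -1.72 to 0.66) and an adjusted p of 0.712 in edgeR. Without mouse 49 it was -1.45 (SE 0.34, adjusted p = 0.151), without control mouse 42 -0.26, and without knockout mice 82 and 88 in turn -0.30 and -0.18. The 3 knockout livers thus did not share a level.

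Plin5 (chromosome 17, 56111601 to 56117596, minus strand), which ties droplets to mitochondria in oxidative tissue, varied least among the perilipins of the 10 genes. It had 48.8, 41.4 and 40.2 CPM in control mice 42, 83 and 90, and 55.7, 39.4 and 41.8 CPM in knockout mice 49, 82 and 88. Its log2 fold change was 0.07 (SE 0.19, 95% interval -0.36 to 0.50; adjusted p = 0.903 in edgeR), and the sign turned under several alternatives, among them scaling by total counts (-0.07) and leaving out mouse 49 (-0.10). Plin4, a perilipin of fat and muscle, lies 1797 bases from Plin5 (chromosome 17, 56100591 to 56109803, minus strand). It had 11.3, 5.95 and 5.89 CPM in control mice 42, 83 and 90, and 13.3, 5.40 and 7.64 CPM in knockout mice 49, 82 and 88 (log2 fold change 0.19, SE 0.39, adjusted p = 0.870 in edgeR), and its sign turned without mouse 49 (-0.24). In both neighbours mice 42 and 49 were the highest. The interval of Plin4, from -0.71 to 1.09, was wider than that of Plin5.

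G0s2 (chromosome 1, 193272161 to 193273217, minus strand) encodes an inhibitor of the lipase ATGL. It had 61.9, 41.1 and 37.2 CPM in control mice 42, 83 and 90, and 60.7, 31.7 and 32.6 CPM in knockout mice 49, 82 and 88. Mice 42 and 49 were again nearly equal and above the rest, and mice 82 and 88 were the lowest of the 6. Its log2 fold change came to -0.16 (SE 0.30, 95% interval -0.85 to 0.52; adjusted p = 0.849 in edgeR). It was -0.54 without mouse 49 and 0.09 without control mouse 42, so that its sign rested on the latter. Mogat1 (chromosome 1, 78510991 to 78538173, plus strand), which makes diacylglycerol and is known to be induced in steatosis, had 13, 16 and 1 counts in control mice 42, 83 and 90 and 7, 3 and 3 in knockout mice 49, 82 and 88. Those counts were too low for the test. The groups overlapped through control mouse 90, and the scaled ratio of control to knockout was 2.10, with an interval of counting error from 1.06 to 4.39. That interval leaves out the spread between mice. In the edgeR fit without a low-count filter its log2 fold change was -1.02 (SE 0.84, 95% interval -2.85 to 0.82, adjusted p = 0.691). An exon of the opposite-strand gene BC035947 covers 15.4% of the coding-transcript exons of Mogat1, and the strand setting of the counting is not given in the sources used here.

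Cd36 (chromosome 5, 17781690 to 17888801, minus strand), the fatty acid translocase of the cell surface, was the tested gene with the highest positive fitted value. It had 162, 262 and 237 CPM in control mice 42, 83 and 90, and 354, 276 and 233 CPM in knockout mice 49, 82 and 88. Mouse 49 was the highest and control mouse 42 the lowest, unlike in Plin2, where these mice were level. The means were 220 ± 52.1 and 288 ± 61.3 CPM (SD, n = 3 each), with a log2 fold change of 0.39 (SE 0.25, 95% interval -0.19 to 0.96; adjusted p = 0.590 in edgeR). It was 0.21 both without mouse 42 and without mouse 49. The ratio of Cd36 to Pparg CPM within a mouse was 13.7, 19.1 and 20.3 in control mice 42, 83 and 90, and 33.5, 42.3 and 29.2 in knockout mice 49, 82 and 88, so these values did not overlap. Of 6 such ratios computed between genes it alone had groups that did not overlap. Its denominator, Pparg, already had groups that did not overlap by itself, and no background share for such ratios is given here. The ratio was chosen after the values were seen and was not tested.

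Fabp4 (chromosome 3, 10204088 to 10208576, minus strand), a fatty acid binding protein of adipocytes, capillary endothelium and macrophages, had 18.7, 27.6 and 54.6 CPM in control mice 42, 83 and 90, and 11.2, 27.6 and 20.8 CPM in knockout mice 49, 82 and 88. Control mouse 90 stood above the rest and the groups overlapped. Its log2 fold change came to -0.76 (SE 0.43, 95% interval -1.73 to 0.21; adjusted p = 0.531 in edgeR), and -0.28 without mouse 90 and -0.47 without mouse 49. The summed level of 12 macrophage markers was also highest in mouse 90 (589 CPM). It ran from 273 to 589 CPM in control and from 361 to 441 CPM in knockout mice. Trem2 was at 0 in all mice. Mouse 90 likewise had the highest sums of stellate cell (980 CPM), hepatocyte (113138 CPM) and adipocyte (553 CPM) markers. Its high sum was thus not particular to the macrophage list. The sum of 10 endothelial markers, all detected, was 313 to 414 CPM in control and 265 to 418 CPM in knockout mice. Their part in the Fabp4 values was not tested. Of 10 adipocyte markers, 4 had no count in any mouse, among them Adipoq, Lep and Cfd, and Plin1 had 2, 2 and 0 counts in control mice 42, 83 and 90 and 2, 0 and 0 in knockout mice 49, 82 and 88. The adipocyte sum ranged from 294 to 553 CPM in control and from 150 to 310 CPM in knockout mice. Nearly all of it was Thrsp, a lipogenic gene that hepatocytes also express, and without Thrsp it lay between 4.58 and 6.67 CPM in all mice.

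**Figure D2:**
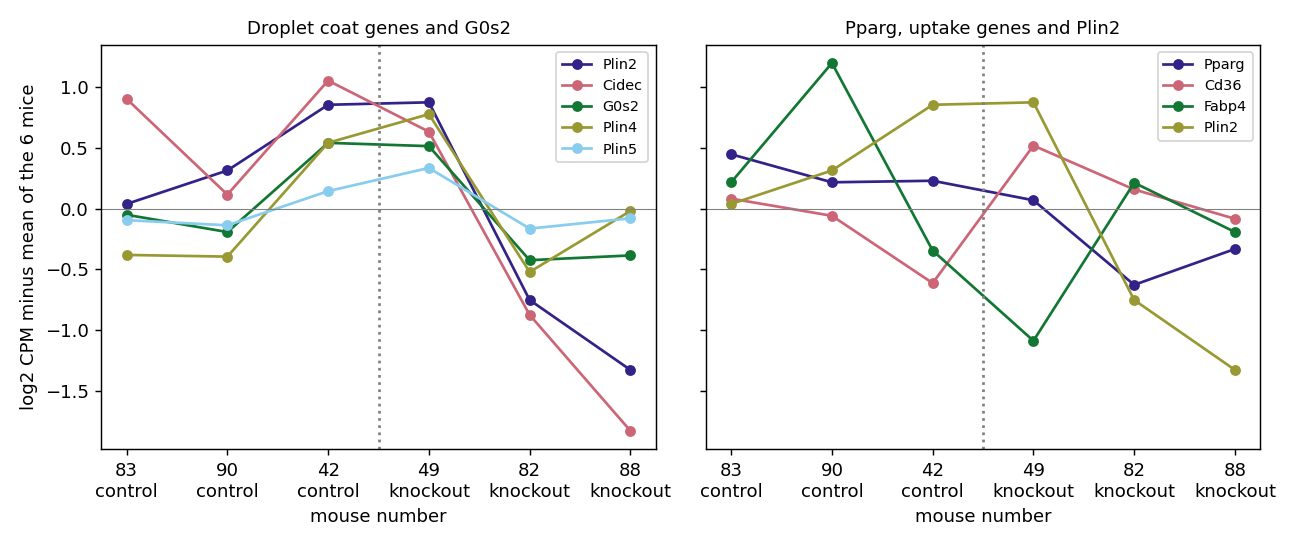
Log2 CPM minus the mean of all 6 mice (vertical axis) for each mouse (horizontal axis, control mice left of the dotted line); lines only join the points of a gene. Plin2 and G0s2 are high in mice 42 and 49 and low in mice 82 and 88, while Fabp4 peaks in mouse 90 and Cd36 in mouse 49.

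Much of the spread of the droplet genes lay within the genotypes. The within-genotype SD of log2 CPM was 0.93 for Cidec and 0.86 for Plin2, larger than in 96.4% and 95.1% of all genes tested. It was 0.72 for Fabp4, 0.59 for Plin4 and 0.46 for G0s2, against 0.26 for Pparg and 0.22 for Plin5, the latter larger than in only 28.03% of genes. In 4 of the 8 tested genes (Plin2, Plin4, Plin5 and G0s2) both mice with low numbers, 42 and 49, lay above the other 4 mice, against a background share of 13.7%. The labels do not say what the mouse numbers stand for, and 1 mouse of each genotype has a low number.

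With only the 4 mice numbered over 80, knockout mice 82 and 88 lay below control mice 83 and 90 in Plin2, Cidec, Fabp4, Pparg and G0s2 (5 of the 8 tested genes, against a background share of 27.1%); Fabp4 did so by less than 0.1 CPM. In these 4 mice the log2 fold change was -1.84 (SE 0.40) for Cidec, -1.19 (SE 0.30) for Plin2 and -0.81 (SE 0.26) for Pparg, with adjusted p values of 0.108, 0.124 and 0.179 in edgeR. Cd36 was at 0.03 (SE 0.23) and Plin5 at 0.00 (SE 0.19) in the same mice. The level of mice 82 and 88 was 28.03% of that of mice 83 and 90 for Cidec and 43.7% for Plin2. A fit of all 6 mice with a term for low against high mouse number gave -1.34 (SE 0.39) for Cidec and -0.79 (SE 0.32) for Plin2, with adjusted p values of 0.227 and 0.314. None of the tested genes among the 10 passed 0.05 in either fit (background share 0.0446% with the term and 0% in the 4 mice), without mouse 49 (0.097%) or without a low-count filter (0.0236%).

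**Figure D3:**
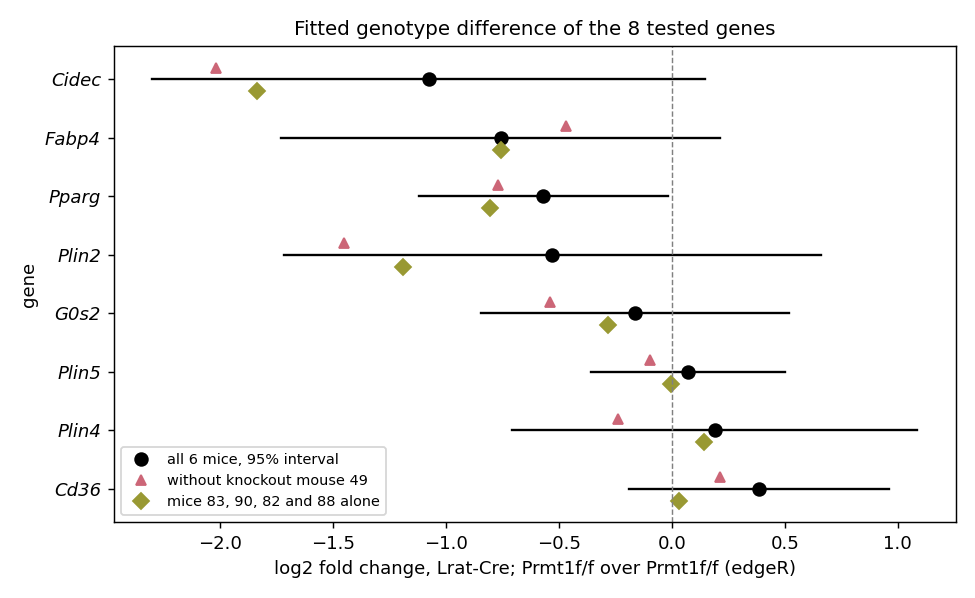
Log2 fold change of knockout over control (horizontal axis) for the 8 tested genes, with 95% intervals from all 6 mice (black), and the values without mouse 49 (triangles) and with mice 83, 90, 82 and 88 alone (diamonds). Only the interval of Pparg leaves out 0; the values of Cidec and Plin2 lie further from 0 without mouse 49.

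Levels of different genes can be set side by side only per length, here CPM per kilobase of the exons of their coding transcripts. On that scale Plin2 had 354 ± 105 in control and 245 ± 203 in knockout mice (SD, n = 3 each), a mean above that of 98.5% of 12889 tested genes with a length. Cd36 (62.3 ± 14.7 and 81.4 ± 17.3) and G0s2 (53.6 ± 15.2 and 47.8 ± 19.0) came next, and these neighbours overlapped in their spread. They were followed by Fabp4 (37.6 ± 20.8 and 22.2 ± 9.18), Plin5 (20.8 ± 2.24 and 21.9 ± 4.21) and Cidec (16.2 ± 5.05 and 7.66 ± 6.46). Pparg (5.22 ± 0.480 and 3.52 ± 0.859) and Plin4 (1.34 ± 0.537 and 1.52 ± 0.704) were low, and Mogat1 and Cidea lay under 1. Of the summed level of the 5 perilipin genes per kilobase, Plin2 made up 91.8%, 87.4% and 90.5% in control mice 42, 83 and 90, and 91.6%, 81.9% and 75.3% in knockout mice 49, 82 and 88. The share of Plin5 was 10.0% in mouse 82 and 14.5% in mouse 88, and between 4.56% and 6.48% in the other 4 mice.

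Other genes of triglyceride handling were read from 5 lists (76 genes, 75 tested). With edgeR 0 of the 75 had an adjusted p under 0.05. DESeq2 called 5 (background share 1.81%), namely Gpat4, Acsl1, Slc27a5 and Abhd6 with higher and Fabp5 with lower levels in knockout mice. Limma-voom with library weights called 8 (background share 4.26%): Gpat4, Dgat2, Abhd6, Slc27a5, Slc27a2 and Klf15 with higher and Fabp5 and Pnpla3 with lower levels. In edgeR 12 of these genes with higher and 5 with lower levels in knockout mice had an unadjusted p under 0.05 (background shares 5.06% and 5.95%). Acsl1, Slc27a2, Slc27a5 and Dgat2 are named after their values were seen.

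**Figure D4:**
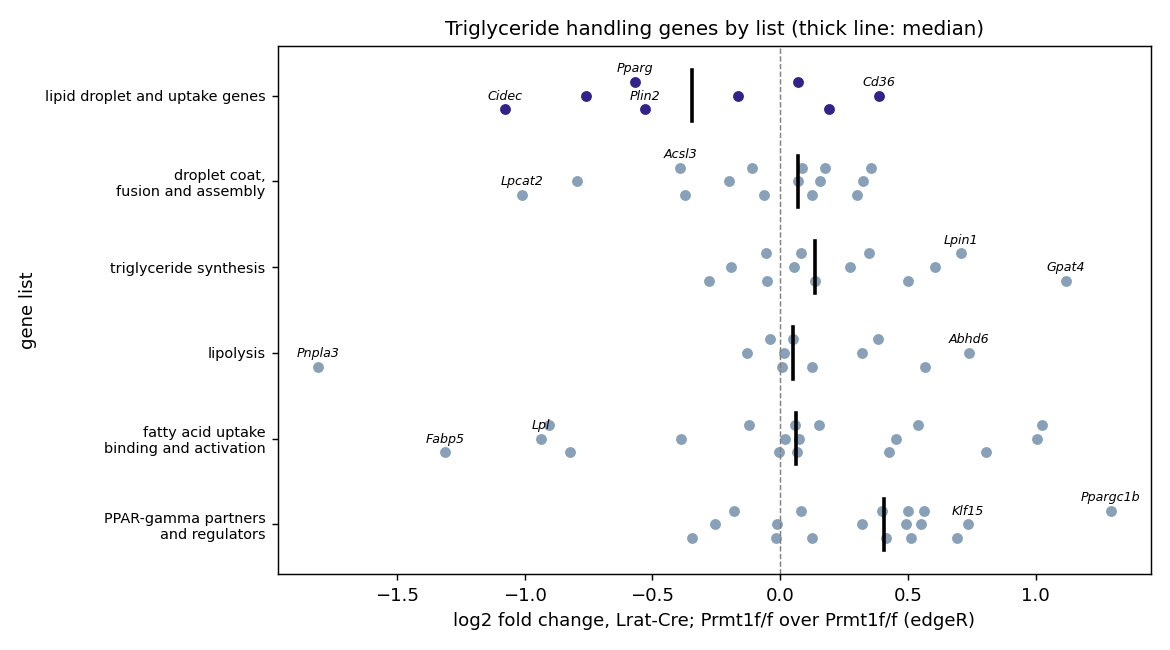
Log2 fold change of knockout over control (horizontal axis) of each tested gene in the 10-gene set (top, dark) and in the 5 other lists; thick lines are list medians. The median is -0.35 in the 10-gene set and between 0.05 and 0.41 in the other lists.

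Genes of droplet coat, fusion and assembly (15 tested) had a median log2 fold change of 0.07, with 8 positive and 7 negative values. Separate groups were found in 0 of them, against a background share of 16.9%. The smallest p values were those of Lpcat2, which remodels droplet phospholipids, with 12.3 ± 5.94 against 6.11 ± 1.81 CPM (control against knockout mice, SD, n = 3 each; -1.01, SE 0.42), and Acsl3, a droplet acyl-CoA synthetase, at -0.39 (SE 0.23). Plin3, the ubiquitous perilipin, was at -0.20 (SE 0.17).

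Among 13 triglyceride synthesis genes the median was 0.13, and 9 values were positive. In 5 of them each knockout mouse was above each control mouse (background share 8.94%), and 0 had the reverse. Gpat4, which starts glycerolipid synthesis in the endoplasmic reticulum, had 185, 131 and 145 CPM in control mice 42, 83 and 90, and 235, 326 and 440 CPM in knockout mice 49, 82 and 88. Its log2 fold change was 1.12 (SE 0.27), with an adjusted p of 0.285 in edgeR and 0.00889 in DESeq2. Lpin1, a phosphatidate phosphatase, was at 0.71 (SE 0.24), and Dgat2, which makes triglyceride, had 371 ± 49.9 and 564 ± 76.0 CPM (0.61, SE 0.22). These enzymes and Cidec thus had values of opposite sign in the same livers.

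Lipolysis genes (11 tested) had a median of 0.05. Abhd6, a monoacylglycerol lipase, had 34.3 ± 3.31 against 57.2 ± 9.83 CPM (0.74, SE 0.19; adjusted p = 0.291 in edgeR and 0.0450 in DESeq2). Pnpla3, a droplet-bound lipase relative, had 3.93, 3.71 and 4.34 CPM in control mice 42, 83 and 90, and 2.25, 0.300 and 0.793 CPM in knockout mice 49, 82 and 88 (-1.81, SE 0.59; adjusted p = 0.347 in edgeR). As in Cidec and Plin2, mouse 49 was the highest knockout mouse in Pnpla3, though here the groups did not overlap. Pnpla2, the lipase ATGL that G0s2 restrains, was at 0.12 (SE 0.18).

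The uptake, binding and activation list (18 tested, median 0.06) held values of both signs, with 3 genes in which all knockout mice were higher and 3 in which all were lower (background shares 8.94% and 7.95%). The hepatocyte transporters Slc27a5 and Slc27a2 had 470 ± 127 against 956 ± 262 CPM (1.03, SE 0.31) and 600 ± 141 against 1203 ± 463 CPM. The acyl-CoA synthetase Acsl1 had 371 ± 60.6 against 648 ± 110 CPM (0.81, SE 0.24). Lower in all knockout mice were Fabp2, Fabp5, a binding protein of macrophages and epithelia (29.9 ± 10.9 against 12.1 ± 2.85 CPM; -1.31, SE 0.32), and Lpl, which frees fatty acids from lipoproteins (93.1 ± 7.87 against 48.6 ± 18.4 CPM; -0.94, SE 0.26). Of 11 tested macrophage markers 5 had positive values, with Marco at 1.47, and 6 negative ones, with Cd68 at -0.75 and Cd9 at -0.85; their part in the Fabp5 and Lpl values was not tested.

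The partners and regulators of PPAR-gamma (18 tested) had a median of 0.41 with 13 positive values, opposite in sign to Pparg itself. In 5 of these the knockout mice were all higher than the controls, against a background share of 8.94%. Rxra, the partner with which PPAR-gamma binds DNA, had 422, 296 and 215 CPM in control mice 42, 83 and 90, and 438, 535 and 536 CPM in knockout mice 49, 82 and 88 (0.69, SE 0.28; adjusted p = 0.416 in edgeR). Klf15, a fasting-linked transcription factor, was at 0.74 (SE 0.24) and Ppargc1b, a coactivator, at 1.29 (SE 0.45). Hepatocyte markers had a median of 0.37 over 10 genes (summed level 69778 to 113138 CPM in control and 86344 to 102432 CPM in knockout mice). Most of that sum was Alb (55389 to 81551 CPM over all mice), which was at 0.10 (SE 0.36). Stellate cell markers had a median of -0.49 over 10 genes, with 9 negative values and 1 positive (705 to 980 CPM in control and 345 to 716 CPM in knockout mice). In 2 of them, Lrat (-1.07, SE 0.27) and Reln (-1.01, SE 0.24), all knockout mice were lower (background share 7.95%). Their adjusted p values were 0.297 and 0.267 in edgeR. The part of hepatocytes and stellate cells in these values, and in those of Pparg and Lpl, was not tested.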

How the data were processed

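The deposited file holds the authors' raw counts per gene symbol in 1 column per mouse, matched to mice by number; 0 columns belonged to other samples. Per the submitters' processing notes, Trimmomatic, FastQC, STAR and HTSeq were used with build mm10; the sources used here give no versions, annotation or strand setting. Total counts ranged from 13303884 to 16462278 per mouse, and intervals from counts cover counting error only. Genes were filtered with filterByExpr, scaled by TMM (factors 0.909 to 1.20) and tested by genotype over all 6 mice in edgeR 4.0.16 with its quasi-likelihood test, using Benjamini-Hochberg adjustment over all genes tested. SEs were derived from the F statistic, and 95% intervals from the t distribution. The exact permutation test used log2 CPM (prior count 2) and 20 assignments. Alternatives were other scalings and filters, DESeq2 1.42.0, limma-voom (limma 3.58.1) with and without library weights, a robust fit, a term for mouse number, the 4 mice numbered over 80 and each mouse left out. The test was checked on simulated data with the same dispersion for every gene and no outlying mice. That check does not cover uneven spread such as that of Plin2 and Cidec. The members, lists and alternatives were chosen with earlier results of these data known. The text names all members and the 2 genes with the smallest p of each of the 5 other pathway lists; marker lists are given by sums and genes at 0. Genes named after their values were seen are marked, or are Plin3, Pnpla2, Rxra, Fabp2, Thrsp, Alb, Lrat and Reln as markers, Marco, Cd68 and Cd9. Lengths are the merged exons of GENCODE M21 transcripts with a consensus coding sequence. P-values of the fits set the genotype difference against the spread between these mice, estimated partly from all genes tested. The permutation p is the share of the 20 assignments with a difference at least as large.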

Additional observations from a re-analysis of the deposited data

How the results depend on the processing

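The number of the 10 genes past an adjusted p of 0.05 was 0 under each alternative run except limma-voom with library weights, which gave 1 (Cidec). For the other pathway genes it was 5 with DESeq2, 8 with library weights and 0 under the rest. Over all genes it was 4 without a low-count filter, 238 with DESeq2, 6 with a term for mouse number, 560 with library weights, 3 at an adjusted p of 0.10, and 0 to 13 when 1 mouse was left out. Signs turned in 3 of the 8 tested genes. Plin4 was at -0.045 with library weights and ranged from -0.24 to 0.57 with 1 mouse left out. Plin5 was at -0.072 with total counts only, -0.052 with library weights and -0.0032 in the 4 mice numbered over 80, and ranged from -0.10 to 0.17 with 1 mouse left out. G0s2 ranged from -0.54 to 0.094. The cause of these changes was not tested. Scaling by total counts moved the median of all genes by -0.15. Plin2, Cidec, Pparg, Fabp4 and Cd36 kept their sign in each of 18 alternatives, with ranges over single mice left out of -1.45 to -0.18, -2.02 to -0.70, -0.77 to -0.44, -1.08 to -0.28 and 0.21 to 0.53. The newer fit of edgeR was added after seeing the data. No paired analysis was possible because the mouse numbers are not shared between genotypes and no label pairs the mice; the term for low against high number is not a pairing. With 3 mice per genotype, differences such as that of Plin2 were not separable from the spread within a genotype.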

Other observations

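Hilpda, which encodes a droplet protein that inhibits ATGL as G0s2 does, was named after its values were seen. It had 14.5, 6.40 and 12.4 CPM in control mice 42, 83 and 90, and 13.1, 4.35 and 1.59 CPM in knockout mice 49, 82 and 88. Mice 82 and 88 were the lowest and mouse 49 lay above mice 83 and 90, as in Plin2 (log2 fold change -0.80, SE 0.64, adjusted p = 0.653 in edgeR). Fabp1, the abundant fatty acid binding protein of hepatocytes, had 1688, 961 and 2497 CPM in control mice 42, 83 and 90, and 1619, 869 and 260 CPM in knockout mice 49, 82 and 88 (-0.90, SE 0.60, adjusted p = 0.591 in edgeR). Its lowest value, in mouse 88, was in the liver with the lowest Plin2 and Cidec. Fabp1 was also named after its values were seen.

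Elovl3, a fatty acid elongase read with the brown fat markers, had 15.0, 0.457 and 2.94 CPM in control mice 42, 83 and 90, and 11.7, 2.25 and 0.865 CPM in knockout mice 49, 82 and 88. Mice 42 and 49 were again the highest, as in Plin2, Plin4, Plin5 and G0s2. Elovl3 was also named after its values were seen. The other 4 brown fat markers summed to at most 2.67 CPM in a mouse, and Dio2 had no count in any mouse. No test was made of what mice 42 and 49 share.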
